A study of Mus musculus with 16 samples.

Results

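A set of 10 genes that mark adipose progenitors and fibroblasts was followed in gonadal white adipose tissue (gWAT): *Pdgfra*, *Pdgfrb*, *Dpp4*, *Pi16*, *Cd34*, *Ly6a*, *Dcn*, *Lum*, *Fn1* and *Sparc*. They were taken by gene symbol, and all 10 were found among the 19373 genes of the expression table and entered the test. RNA came from 16 male C57BL/6J mice, 4 in each of 4 groups. Control (*Mboat7* flox/flox) and *Mboat7* ASKO animals were fed chow or a high fat diet (HFD, 60% of energy as fat) for 20 weeks and fasted for 4 h. All 16 mice carry floxed *Mboat7* alleles, and those of the ASKO groups also have a Cre transgene driven by the adiponectin promoter. It acts in adipocytes and leaves the gene in place in progenitors, fibroblasts and other cells. Each library came from 1 mouse, the mice were described as age-matched with no starting age given, and the sample titles number them from 0 to 3 in each group.

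White adipose tissue holds lipid-filled adipocytes and a stromal fraction of progenitors, fibroblasts, vessel cells and immune cells. Progenitors carry the PDGF receptor PDGFRα and the surface proteins CD34 and SCA-1 (the product of *Ly6a*). A DPP4- and PI16-positive subset lies in the connective tissue around the fat lobules, and more committed preadipocytes lie closer to the adipocytes. Fibroblasts and progenitors also make much of the extracellular matrix, including the small proteoglycans decorin and lumican, the adhesive glycoprotein fibronectin and the collagen-binding protein SPARC. The last is also made by adipocytes and endothelial cells, and CD34 and SCA-1 are also carried by endothelial cells.

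The values are FPKM, in which fragment numbers are divided by exon length and by the total mapped, so levels of different genes can be set side by side per length. Differences between groups are differences in mean log2(FPKM + 1), a scale that understates changes of low genes. They come from 1 limma fit of all 4 groups over the 13148 genes that reached 1 FPKM in 4 or more mice. A gene was called at a Benjamini-Hochberg adjusted p under 0.05 and a difference beyond 0.5 in either direction. For single markers a two-sided exact permutation test is also given, whose smallest p is 0.0286 for 4 mice against 4 and 0.000155 for 8 against 8. FPKM sums per mouse ran from 606407 to 982016, and the 10 highest genes held between 32.5% and 55.2% of the sum, above 50% in 2 mice on HFD, 1 of each genotype. The steps between low values put the fragments behind a mouse's values at roughly 248000 to 424000, although only 54.7% to 81.7% of low values fell within 0.2 steps of a whole number. *Mboat7* itself was low. On chow it was listed at 2.42, 4.33, 0.902 and 4.99 FPKM in control mice and at 0, 1.39, 0 and 2.89 FPKM in *Mboat7* ASKO mice (difference -1.12, exact permutation p = 0.143). On HFD it was listed at 0, 0, 2.15 and 1.61 FPKM in control mice and at 1.14, 0, 2.60 and 0 FPKM in *Mboat7* ASKO mice (difference -0.02, exact permutation p = 1.0). The groups overlapped on both diets, so the transcript did not separate the genotypes in these libraries, and the reason was not tested. By western blot the study reported less MBOAT7 protein in gWAT of chow-fed *Mboat7* ASKO mice.

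*Lum* rose on HFD in both genotypes. *Sparc* rose less, and was called over both genotypes but in neither alone, a call lost under 3 of the alternative settings. With both genotypes together, mean *Lum* was 164 FPKM on HFD and 25.5 FPKM on chow, a ratio of 6.45, while mean *Sparc* was 529 and 328 FPKM, a ratio of 1.61. In bulk tissue, a change in the number of cells of a type and a change in RNA per cell cannot be told apart. None of the other 8 markers passed the test for diet, and no marker passed it for genotype on either diet or for the difference of the diet effect between genotypes. Over all genes, 7.53% were called for diet over both genotypes, against 2 of the 10 markers. The median difference of the 10 markers was 0.43, and 8 were higher on HFD, while the median of all tested genes was 0.0087 and 50.5% were higher.

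**Figure D1:**
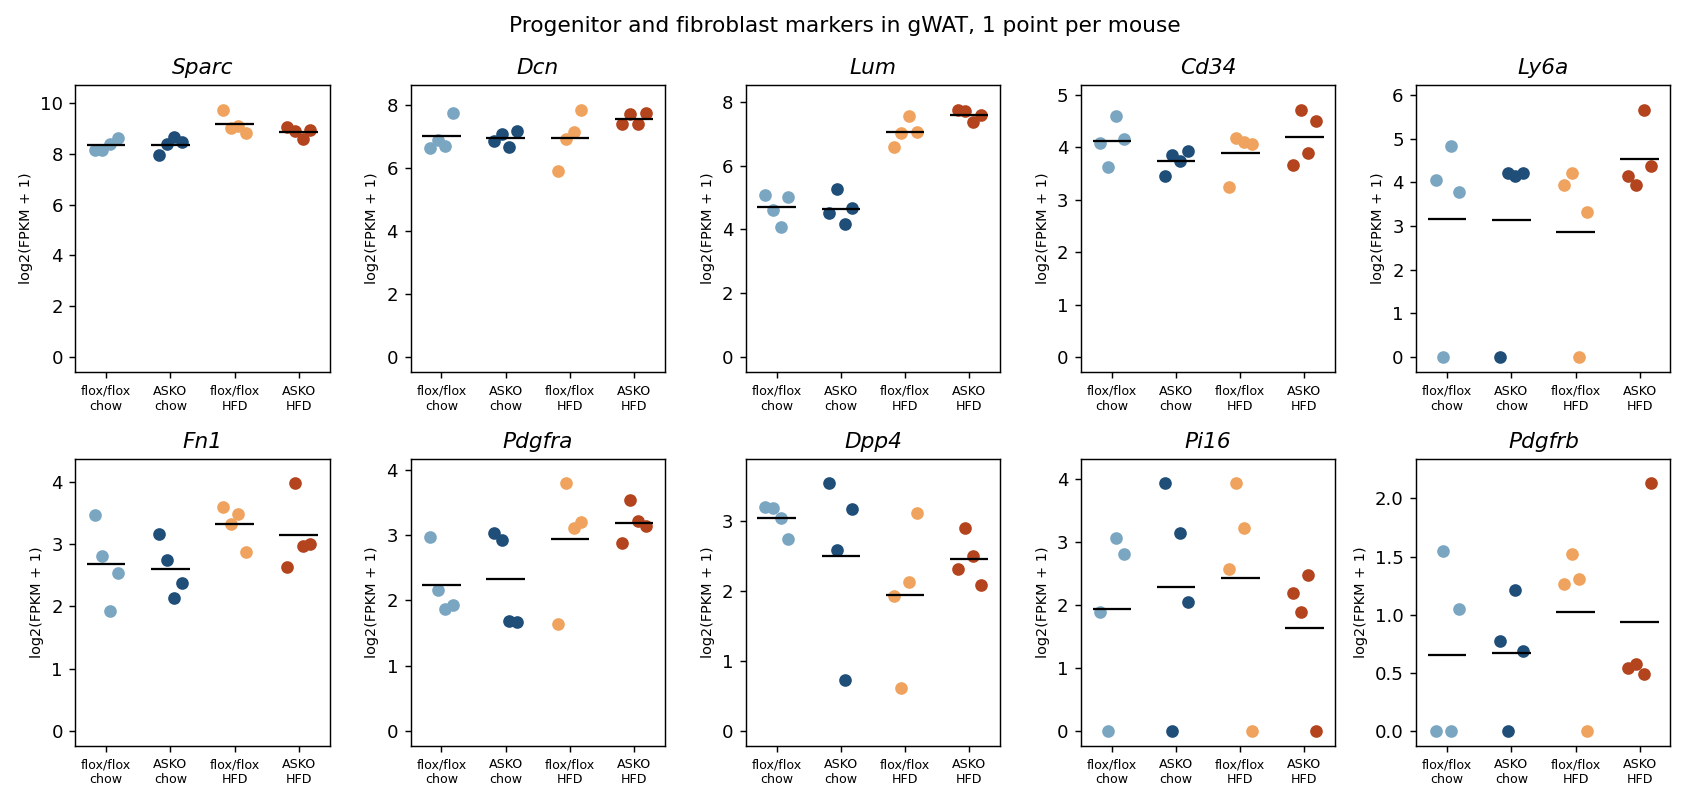
Each panel plots 1 marker, with log2(FPKM + 1) on the vertical axis and 1 point per mouse in the 4 groups; black lines are group means, and each panel has its own scale starting near 0. *Lum* is the marker whose 8 mice on HFD all lie above its 8 mice on chow, while *Ly6a*, *Pi16* and *Pdgfrb* include mice listed at 0.

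The most abundant of the 10 were *Sparc*, *Dcn* and *Lum*. In the 16 mice *Ly6a* was listed at 0 in 3, *Pi16* in 4 and *Pdgfrb* in 4, and the other 7 markers were above 0 in every mouse. On chow, *Sparc* stood first at a mean of 328 FPKM and above *Dcn* in 8 of 8 mice, *Dcn* (129 FPKM) above *Lum* in 8 of 8, and *Lum* (25.5 FPKM) above *Cd34* in 7 of 8. *Cd34* and *Ly6a* could not be ordered, with *Cd34* the higher in 4 of 8 mice, and neither could *Dpp4*, *Fn1*, *Pi16* and *Pdgfra*, whose means ran from 6.67 down to 4.24 FPKM with neighbours in order in 4 or 5 of 8 mice. *Pdgfrb* was lowest, below *Pdgfra* in 8 of 8 mice. On HFD *Lum* (164 FPKM) had drawn level with *Dcn* (163 FPKM), above it in 5 of 8 mice. *Lum* made up between 3.03% and 6.86% of the summed FPKM of the 10 markers on chow and between 9.02% and 22.5% on HFD.

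*Lum* encodes lumican, a small leucine-rich proteoglycan that binds collagen fibrils, whose gene (mm10 chromosome 10, 97565501 to 97572703, plus strand) has no exon shared with another gene. On chow it was at 32.6, 23.3, 15.9 and 31.1 FPKM in control mice and at 22.0, 37.4, 17.1 and 24.4 FPKM in *Mboat7* ASKO mice. The HFD values were 94.5, 128, 187 and 131 FPKM in control mice and 215, 209, 162 and 189 FPKM in *Mboat7* ASKO mice. The lowest mouse on HFD was above the highest on chow within each genotype and over both. The difference was 2.36 in control mice (SE 0.304, adjusted p = 0.000285 by limma) and 2.94 in *Mboat7* ASKO mice (SE 0.304, adjusted p = 3.66e-05 by limma). Over both genotypes it was 2.65 (95% interval 2.19 to 3.10, adjusted p = 7.17e-07 by limma). The exact permutation test over 8 mice against 8 gave p = 0.000155, the smallest it can give. Groups that do not overlap occurred in 2.22% of tested genes for diet over both genotypes, in 8.34% within control mice and 9.6% within *Mboat7* ASKO mice. Within the 2 genotypes, *Lum* was the only marker called, beside 2.91% of all tested genes within control mice and 3.43% within *Mboat7* ASKO mice.

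On HFD mean *Lum* was 194 ± 23.6 FPKM in *Mboat7* ASKO mice against 135 ± 38.1 FPKM in control mice (SD, n = 4). The range of 162 to 215 FPKM overlapped the 94.5 to 187 FPKM of control mice. The difference was 0.55 (95% interval -0.09 to 1.20, adjusted p = 0.973 by limma, exact permutation p = 0.0571). On chow the difference between genotypes was -0.03. The diet effect differed between genotypes by 0.58 (95% interval -0.33 to 1.49, adjusted p = 0.862 by limma).

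*Dcn* encodes decorin, another small leucine-rich proteoglycan, which binds collagen and TGF-beta, and is a neighbour of *Lum* on chromosome 10 (97479500 to 97518162, plus strand). On chow it was at 99.1, 118, 104 and 214 FPKM in control mice and at 116, 135, 101 and 144 FPKM in *Mboat7* ASKO mice. On HFD it was at 59.6, 120.2, 142 and 229.6 FPKM in control mice and at 168, 208, 166 and 212 FPKM in *Mboat7* ASKO mice. In control mice the 2 diets overlapped (difference -0.04), and in *Mboat7* ASKO mice every mouse on HFD was above every mouse on chow (difference 0.61, adjusted p = 0.447 by limma, exact permutation p = 0.0286). The diet effect differed between genotypes by 0.64 with a 95% interval of -0.39 to 1.68, so a genotype-dependent response was not shown. Over both genotypes the difference was 0.28 (95% interval -0.23 to 0.80, adjusted p = 0.599 by limma).

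Since *Lum* and *Dcn* encode related proteoglycans and are measured in the same library, their FPKM ratio within a mouse is free of any scaling between mice. The ratio was chosen after the values had been seen. On chow it was 0.329, 0.198, 0.153 and 0.145 in control mice and 0.19, 0.277, 0.169 and 0.169 in *Mboat7* ASKO mice. The HFD values were 1.59, 1.06, 1.32 and 0.57 in control mice and 1.28, 1.0, 0.976 and 0.894 in *Mboat7* ASKO mice. All 8 mice on HFD lay above all 8 on chow, by 2.44 on the log2 scale in control and by 2.38 in *Mboat7* ASKO mice, and between genotypes the log2 ratio differed by -0.05 on HFD. These values are a description, with no test.

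**Figure D2:**
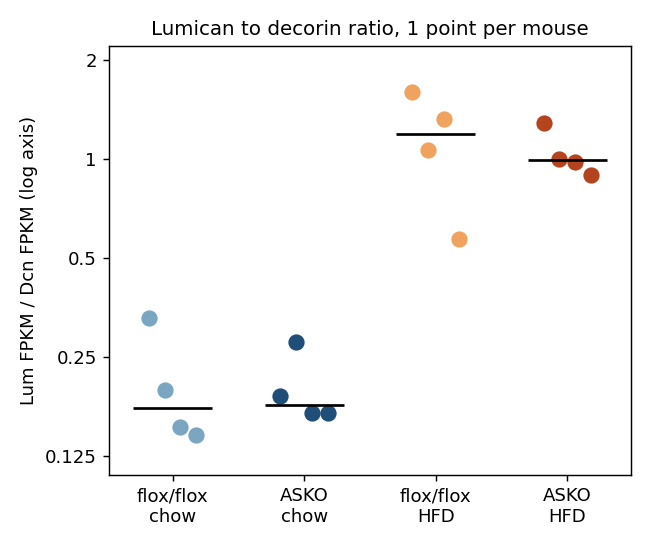
The FPKM of *Lum* divided by that of *Dcn* is plotted for each mouse on a log axis, with lines at group medians. The 8 mice on chow lie between 0.145 and 0.329 and the 8 mice on HFD between 0.57 and 1.59, with the genotypes intermingled on either diet.

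*Sparc* encodes SPARC (osteonectin), a secreted protein that binds collagen and takes part in its deposition, from a gene on chromosome 11 (55394500 to 55420080, minus strand). It is the called marker with a promoter entry in RefSeq, so the 250 bases before its start (GRCm38.p6, chr11:55420081-55420330, minus strand) are shown, 5′ to 3′:

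Sparc: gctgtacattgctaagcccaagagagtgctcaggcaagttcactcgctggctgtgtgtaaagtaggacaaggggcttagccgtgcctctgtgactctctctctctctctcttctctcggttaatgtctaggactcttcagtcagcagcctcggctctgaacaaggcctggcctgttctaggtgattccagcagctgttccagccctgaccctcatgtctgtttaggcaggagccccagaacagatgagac

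No base is in capitals because none of the 4 motifs searched on both strands was found. The letters TATAAA, the core of a promoter element bound by the basal machinery, occur in 12.4% of 32851 mouse promoter windows of the same length. The element CCAAT, bound by the factor NF-Y, occurs in 33.8% of them. A GC box, spelled GGGCGG, occurs in 32.7%. The AP-1 site, spelled TGACTCA, occurs in 4.46%. The *Sparc* window has a GC content of 54.0% against a median of 52.4%. Promoter activity was not measured in these mice.

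On chow *Sparc* was at 284, 284, 332 and 390.4 FPKM in control mice and at 243, 335, 400.0 and 351 FPKM in *Mboat7* ASKO mice. On HFD it was at 849, 511, 547 and 450.3 FPKM in control mice and at 523, 480.1, 383 and 487 FPKM in *Mboat7* ASKO mice. In control mice the diets did not overlap. In *Mboat7* ASKO mice 1 mouse on HFD (383 FPKM) was within the range on chow. Over both genotypes *Sparc* rose by 0.67 (SE 0.166, adjusted p = 0.0183 by limma, exact permutation p = 0.000466). In single genotypes the difference did not pass, at 0.84 in control mice (adjusted p = 0.0733 by limma) and 0.51 in *Mboat7* ASKO mice (adjusted p = 0.321 by limma). The 2 diet effects differed by -0.33 (95% interval -1.03 to 0.37). Between genotypes *Sparc* differed by -0.30 on HFD and 0.03 on chow, neither called. The call for diet was lost when mice were scaled to the same FPKM sum (0.60, adjusted p = 0.0822 by limma), without the intensity trend (0.67, adjusted p = 0.0844 by limma), and without the 2 mice whose 10 highest genes held more than 50% of the FPKM sum, a setting added after the values had been seen (0.69, adjusted p = 0.0539 by limma). It was kept with each mouse left out in turn.

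*Fn1* encodes fibronectin, a matrix glycoprotein bound by integrins (chromosome 1, minus strand, 71585520 to 71653200 in GENCODE M21). Its lowest, median and highest values were 2.79, 5.23 and 10.1 FPKM in the 8 mice on chow and 5.18, 8.03 and 14.7 FPKM in the 8 mice on HFD. The diets overlapped, and the difference of 0.59 did not pass the test (95% interval -0.05 to 1.23, adjusted p = 0.309 by limma). The unadjusted exact permutation p was 0.0292.

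*Pdgfra* encodes PDGFRα, the receptor used to define adipose progenitors (chromosome 5, 75152292 to 75198215, plus strand). On chow it was at 6.87, 3.47, 2.66 and 2.82 FPKM in control mice and at 7.16, 6.57, 2.22 and 2.18 FPKM in *Mboat7* ASKO mice. The HFD values were 2.13, 12.8, 7.58 and 8.19 FPKM in control mice and 6.32, 10.6, 8.27 and 7.80 FPKM in *Mboat7* ASKO mice. Most mice on HFD were above most on chow, but control mouse 0 on HFD was the lowest of all 16. The difference over both genotypes was 0.78 (95% interval 0.03 to 1.53), which did not pass after adjustment over all genes (adjusted p = 0.234 by limma). The unadjusted exact permutation p was 0.0277. In single genotypes the difference was 0.70 in control and 0.86 in *Mboat7* ASKO mice. *Pdgfra* shares exon sequence with 2 predicted genes on the opposite strand and with the microRNA gene *Mir7025*. *Fn1*, *Dpp4*, *Pi16* and *Cd34* each share exon sequence with 1 gene on the opposite strand, and strand use in counting is not stated.

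*Pdgfrb* encodes PDGFRβ, carried by pericytes and by some progenitors (chromosome 18, 61045150 to 61085061, plus strand). It was at 0, 1.92, 0 and 1.07 FPKM in control mice on chow and at 0.714, 0, 1.32 and 0.606 FPKM in *Mboat7* ASKO mice on chow. On HFD it was at 1.40, 1.87, 1.48 and 0 FPKM in control mice and at 0.456, 0.495, 0.403 and 3.38 FPKM in *Mboat7* ASKO mice. The groups overlapped, and the diet difference over both genotypes was 0.32 (95% interval -0.45 to 1.09). The highest value corresponds to an estimated 7 fragments.

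*Dpp4* and *Pi16* mark the interstitial progenitors. *Dpp4* encodes a cell-surface dipeptidyl peptidase (chromosome 2, 62330073 to 62470913 as the table gives it, minus strand). It was at 8.13, 8.06, 7.23 and 5.70 FPKM in control mice on chow and at 2.79, 0.523, 3.38 and 7.64 FPKM in control mice on HFD. In *Mboat7* ASKO mice it was at 10.6, 5.01, 0.656 and 7.98 FPKM on chow and at 3.95, 6.47, 4.67 and 3.22 FPKM on HFD. The control mice on HFD were mostly below those on chow, with 1 mouse among them. The difference was -1.10 in control mice (95% interval -2.35 to 0.16, adjusted p = 0.44 by limma), -0.06 in *Mboat7* ASKO mice and -0.58 over both genotypes (adjusted p = 0.517 by limma). None of these passed.

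*Pi16* encodes peptidase inhibitor 16 (chromosome 17, 29318882 to 29329413, plus strand). It was at 2.70, 0, 7.34 and 6.01 FPKM in control mice on chow and at 14.2, 0, 7.78 and 3.12 FPKM in *Mboat7* ASKO mice on chow. The HFD values were 4.93, 14.1, 8.34 and 0 FPKM in control mice and 3.57, 2.67, 4.55 and 0 FPKM in *Mboat7* ASKO mice. In each group 1 mouse was listed at 0, the groups overlapped throughout, and the diet difference of -0.08 had a 95% interval of -1.51 to 1.36.

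*Cd34* encodes a sialomucin of progenitor and endothelial cells (chromosome 1, starting at 194938819, plus strand; the region given in the table runs past the end of the gene). It was the steadiest of the low markers. It was at 15.9, 11.3, 23.1 and 16.8 FPKM in control mice and at 9.96, 13.5, 12.3 and 14.2 FPKM in *Mboat7* ASKO mice on chow. On HFD it was at 8.48, 17.0, 16.1 and 15.8 FPKM in control mice and at 11.6, 25.3, 13.8 and 21.7 FPKM in *Mboat7* ASKO mice. The diet difference was 0.12 over both genotypes (95% interval -0.40 to 0.64, adjusted p = 0.873 by limma).

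*Ly6a* encodes SCA-1 (chromosome 15, 74994877 to 74998031, minus strand), and its short transcript makes 1 fragment worth several FPKM. It was at 15.6, 0, 27.5 and 12.7 FPKM in control mice and at 0, 17.5, 16.8 and 17.7 FPKM in *Mboat7* ASKO mice on chow. The HFD values were 14.3, 17.7, 0 and 8.96 FPKM in control mice and 16.7, 14.3, 49.6 and 19.7 FPKM in *Mboat7* ASKO mice. The median over 16 mice corresponds to about 4.4 fragments, and 3 mice were listed at 0. The diet difference was 0.54 over both genotypes (95% interval -1.15 to 2.24).

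Genotype moved none of the 10 markers past the test. On HFD the differences ran from -0.79 (*Pi16*) to 1.66 (*Ly6a*, 95% interval -0.73 to 4.06), with 6 higher and 4 lower in *Mboat7* ASKO mice and all adjusted p from 0.973 to 1.0. The others on HFD were 0.60 for *Dcn*, 0.50 for *Dpp4*, 0.30 for *Cd34*, 0.25 for *Pdgfra*, -0.09 for *Pdgfrb* and -0.18 for *Fn1*. On chow they ran from -0.54 to 0.34. The 95% interval on HFD was -0.14 to 1.33 for *Dcn*, -0.79 to 0.20 for *Sparc*, -0.44 to 1.03 for *Cd34* and -2.82 to 1.24 for *Pi16*, so the data leave room for changes of these sizes. With 1 mouse left out the difference ran from 0.70 to 2.11 for *Ly6a*, from -1.60 to -0.25 for *Pi16*, from 0.06 to 0.89 for *Dpp4*, from 0.25 to 0.89 for *Dcn* and from 0.08 to 0.47 for *Cd34*. Over all genes limma called 0.00761% for genotype on HFD (1 gene, *Cdk20*, named after its values were seen) and 0.00761% on chow. It called 0% for the difference of the diet effect between genotypes, where 828 of 13148 genes had an unadjusted limma p under 0.05. That number was 677 for genotype on HFD and 631 on chow. By chance a share of about 0.05 of the tested genes falls under that limit. No marker had genotype groups that do not overlap, beside 3.38% of tested genes on HFD and 2.19% on chow. The study, using Cufflinks at q under 0.05, reported genotype-dependent genes on HFD. In ASKO mice it described raised RNA of macrophage genes, including *Cd68* and *Itgax*. Here *Itgax* on HFD ranged from 8.51 to 26.3 FPKM in control and from 34.6 to 47.4 FPKM in *Mboat7* ASKO mice. For *Cd68* the ranges were 23.8 to 58.7 and 52.9 to 98.7 FPKM. Of 17 macrophage markers 16 had a genotype difference above 0 on HFD, and none was called by limma. Why the outcomes differ was not tested.

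**Figure D3:**
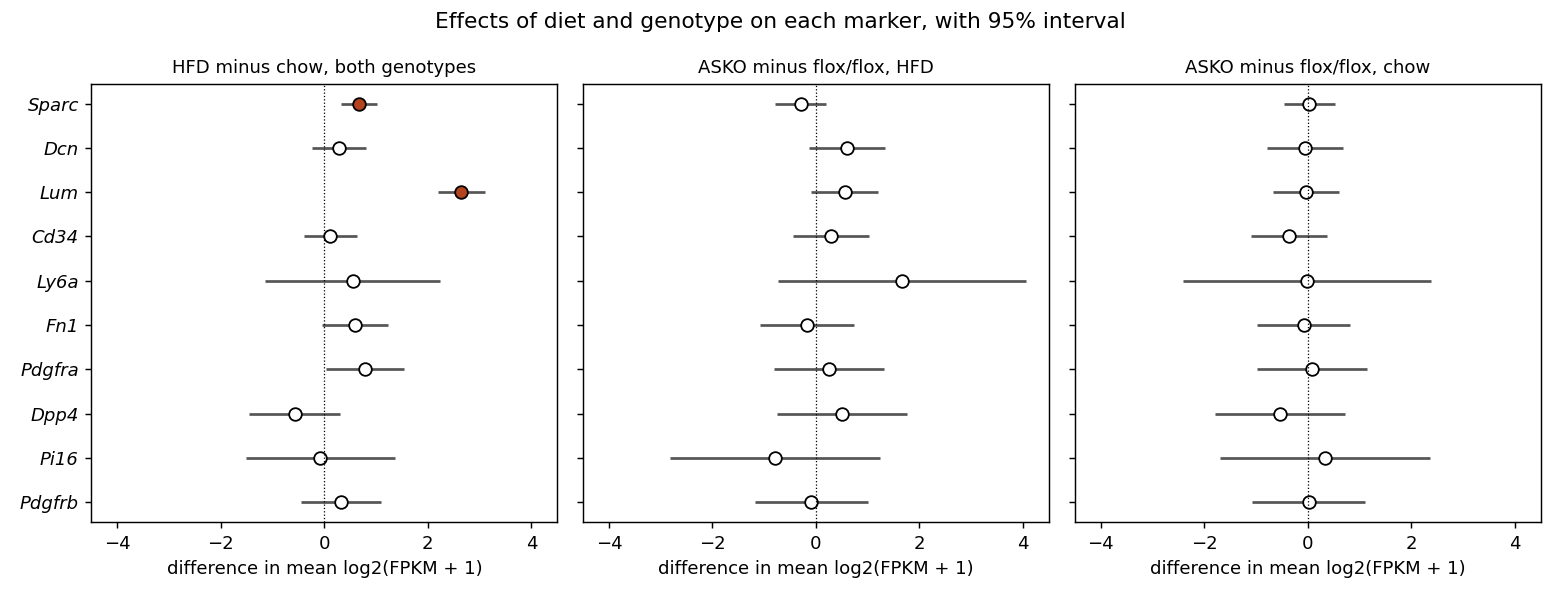
For each marker the difference in mean log2(FPKM + 1) is plotted with its 95% interval, for diet over both genotypes (left) and for genotype on HFD (middle) and on chow (right); filled points were called. *Lum* (2.65) and *Sparc* (0.67) are filled at the left, and no point is filled in the genotype panels.

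Other genes of these pathways were taken from lists made from general knowledge but with earlier results of these data known, so their counts are a description. Counts for diet over both genotypes are to be read against the 7.53% of all tested genes called in that comparison. None of the 4 PDGF ligands, which bind the 2 PDGF receptors, passed for diet over both genotypes: the differences were 0.23 for *Pdgfa*, 0.82 for *Pdgfb*, -0.24 for *Pdgfc* and 0.71 for *Pdgfd* (adjusted p from 0.32 to 0.889 by limma). Of 10 tested further markers of interstitial progenitors, 1 rose, a share near that of all genes, and their median difference was 0.33. It was *Pcolce2*, an enhancer of procollagen processing, which rose by 1.41 (SE 0.308, adjusted p = 0.008 by limma). Of 16 tested markers of committed preadipocytes, 1 rose, again near the share of all genes, and their median was 0.30. It was the chemokine gene *Cxcl14*, listed at 0 in all 4 control mice on chow and at up to 2.24 FPKM in *Mboat7* ASKO mice on chow. It was between 4.98 and 18.2 FPKM in control mice and between 2.07 and 6.24 FPKM in *Mboat7* ASKO mice on HFD (adjusted p = 0.000179 by limma). Without its values on HFD *Cxcl14* would not have passed the filter of 1 FPKM in 4 mice.

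Among 9 tested small leucine-rich proteoglycans other than *Lum* and *Dcn*, 1 was called higher and none lower (median 0.21). Biglycan (*Bgn*), the closest relative of decorin, rose by 1.26 (SE 0.240, adjusted p = 0.00287 by limma), from 9.54 ± 2.07 to 26.8 ± 12.8 FPKM in control mice and from 11.9 ± 1.76 to 29.1 ± 8.36 FPKM in *Mboat7* ASKO mice (mean ± SD, n = 4). Differences of -1.26 for *Epyc* and -1.01 for *Fmod* did not pass the test, and 3 of the 9 differences were below 0.

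Of the 7 tested relatives of SPARC, 3 rose and 1 fell, beside 7.53% called over all genes, with a median of 0.18. *Sparcl1* (hevin) rose by 1.08 (adjusted p = 0.0179 by limma), and *Fstl1*, a secreted follistatin-like glycoprotein, by 1.04 (adjusted p = 0.00213 by limma). *Spock1*, a proteoglycan of the family, was listed at 0 in all 8 mice on chow (adjusted p = 0.0375 by limma). On HFD it was between 0 and 7.71 FPKM in control mice and between 0 and 5.56 FPKM in *Mboat7* ASKO mice. *Spock1* thus passed the filter of 1 FPKM in 4 mice only through its values on HFD, so a fall could not be found. *Smoc1*, a calcium-binding matricellular protein, fell by 1.72 (adjusted p = 0.00273 by limma), and in control mice its mean was 17.8 ± 3.08 FPKM on chow and 3.86 ± 3.22 FPKM on HFD (SD, n = 4). In *Mboat7* ASKO mice it was 8.31 ± 2.46 FPKM on chow and 2.96 ± 1.65 FPKM on HFD (SD, n = 4). The fall of *Smoc1* was called within control mice but not within *Mboat7* ASKO mice. The family moved in both directions.

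Among 24 tested other genes of the fibroblast matrix, 4 rose and 3 fell, beside 7.53% called over all genes (median 0.21). The genes that rose were *Pcolce* (1.61), *Serpinf1* (1.51), which encodes the secreted pigment epithelium-derived factor, *Postn* (1.39), which encodes periostin, and *Lox* (1.20), the lysyl oxidase that cross-links collagen. Those that fell were *Thbs1*, encoding thrombospondin-1 (-1.35), *Gsn*, encoding the actin-severing protein gelsolin (-1.12), and *Efemp1*, encoding fibulin-3 (-0.96). Their adjusted p by limma ran from 0.000167 (*Gsn*) to 0.0474 (*Thbs1*). No tested fibronectin receptor (0 of 5) and no gene of the TGF-beta and myofibroblast list (0 of 12) passed for diet over both genotypes. Within *Mboat7* ASKO mice the TGF-beta receptor gene *Tgfbr1* rose by 2.32 (adjusted p = 0.0382 by limma), 1 of 12 genes of its list beside 3.43% of all tested genes. It was between 0 and 4.06 FPKM on chow and between 7.61 and 16.9 FPKM on HFD in these mice. In control mice it was between 5.45 and 7.63 FPKM on chow and between 1.24 and 11.4 FPKM on HFD, and the difference of its diet effect between genotypes was not called.

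**Figure D4:**
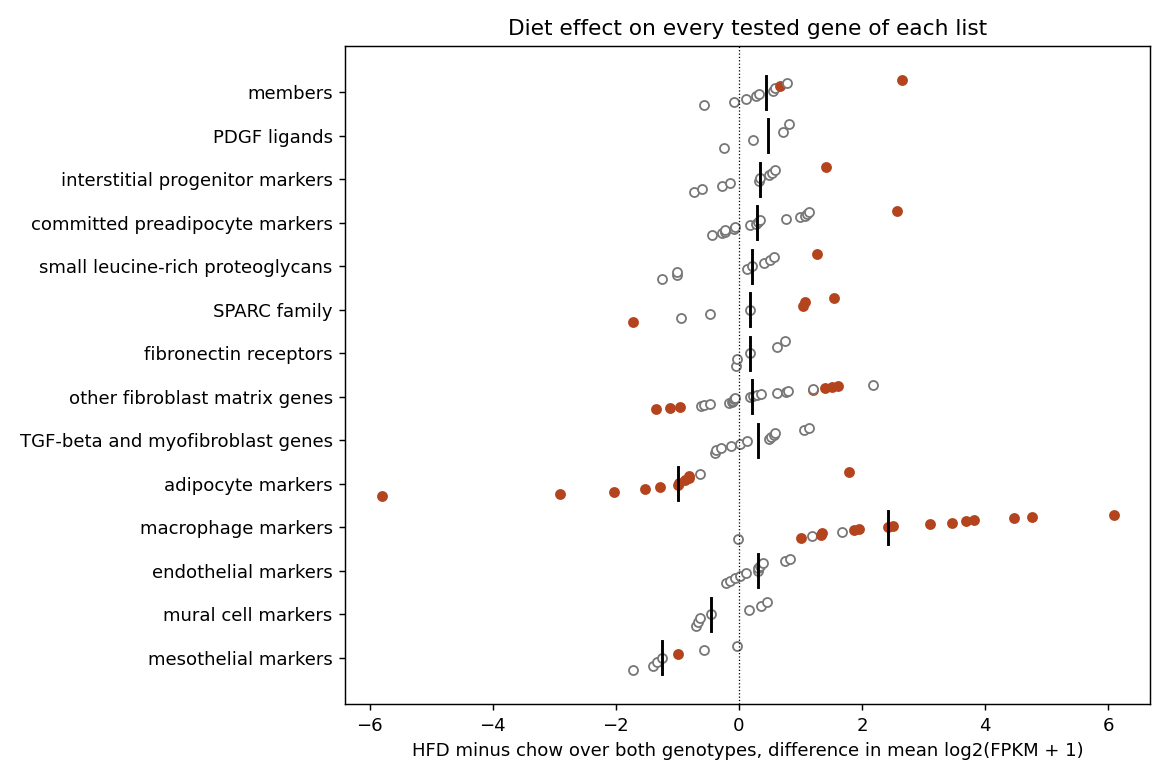
Each point is 1 tested gene, placed by its difference in mean log2(FPKM + 1) between HFD and chow over both genotypes; filled points were called, black bars are list medians, and the first line holds the 10 progenitor and fibroblast markers. The macrophage list lies to the right (median 2.41), and the adipocyte (median -0.98) and mesothelial (median -1.25) lists lie to the left. The medians of the 8 lists from the PDGF ligands to the TGF-beta genes lie between 0.18 and 0.47.

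Marker RNA of some other cell types of the tissue differed with diet. Of 17 macrophage markers 14 rose, and their summed FPKM was between 253 and 366 on chow and between 952 and 1811 on HFD, with *Fcgr1* at 0 in every control mouse and *Fcer1g* at 0 in every *Mboat7* ASKO mouse on chow. Of 12 adipocyte markers 10 fell and 1, the leptin gene *Lep*, rose. Their sum was between 10904 and 28479 FPKM on chow and between 5139 and 11871 FPKM on HFD, and none was at 0 throughout a group. None of 11 tested endothelial and 7 tested mural cell markers was called. Of 7 tested mesothelial markers 1 (*Lrrn4*) was called lower, and the differences of all 7 were below 0 (median -1.25). The list's sum was between 14.3 and 39.8 FPKM on chow and between 1.65 and 32.1 FPKM on HFD. The part of these shifts in the results for *Lum* and *Sparc* was not tested. Of the 8 epididymal epithelium markers 1 was in the table and none was tested. Markers of lymphocytes (2 tested), skeletal muscle (1 tested) and red blood cells (4 tested) gave no calls for diet over both genotypes.

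Correlations within groups differed between pairs of markers. After group means were taken off, the correlation of log2 values over 16 mice was 0.49 for *Lum* with *Dcn* and -0.18 for *Sparc* with *Lum*. The largest in size among all pairs of the 10 markers was -0.78 for *Sparc* with *Pdgfra* (Spearman -0.74). It was -0.6 without the 2 mice with *Sparc* farthest from the median. Those 2 included control mouse 0 on HFD, with the highest *Sparc* and lowest *Pdgfra* of all 16. These points share libraries and their scaling, and are given as a description. The mean log2 value of the 10 markers was 3.75 ± 0.23 on chow and 4.28 ± 0.21 on HFD (SD, n = 8), with ranges of 3.30 to 4.04 and 4.03 to 4.59. Without *Lum* it was 3.65 ± 0.24 and 3.95 ± 0.21 (SD, n = 8), with ranges of 3.15 to 3.93 and 3.69 to 4.24. The ranges of the diets overlapped with *Lum* and without it. The genes outside the 10 whose log2 values followed this mean most closely over 16 mice were *Cpt1a* (r = 0.903), *Slc15a3* (0.87), *Cadm1* (0.867), *Prrx1* (0.864) and *Rab31* (0.861). After group means were taken off they included *P4ha1* (0.868), *Rbm39* (0.864), *Slc4a1ap* (0.826) and *Cpt1a* (0.815). Because they were picked as the highest of 13148 tested genes over 16 mice, their r is a description with no test. *Slc15a3*, *Cadm1*, *P4ha1* and *Slc4a1ap* had a lowest value of 0 FPKM.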

How the data were processed

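RNA-seq libraries from gWAT of single mice were made with a directional kit. The authors ran TrimGalore, then STAR against mm10 with the GENCODE annotation (release not given in the sources used here), and took the deposited FPKM values from Cufflinks. Library scaling and strand use in counting are not stated, and the labels and the study's methods name different chow products and sequencers. FPKM values were used as deposited. Groups were compared with limma 3.58.1 (R 4.3.3) on log2(FPKM + 1) with the intensity trend, all 4 groups in one fit and no covariate, and p-values were adjusted within each of 6 contrasts. Fragment steps used single-transcript coding genes of at least 1000 bases in GENCODE M21 less 200 bases. Exact tests used scipy 1.17.1. Named genes were the 10 markers, *Mboat7*, every called gene of the other lists up to 5 in each direction, and the 5 genes most like the markers' mean on 2 scales; for macrophage and adipocyte lists counts are given. Some genes are not reported here. RefSeq promoter entries matched 5 of the 10 markers. The markers and lists were chosen with earlier results of these data known. Alternatives covered the pseudocount, filter, scaling, model, replicate number as a block, and each mouse left out. No pair of libraries was identical.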

Additional observations from a re-analysis of the deposited data

Results flagged for a closer look

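Within groups of 4 mice, 9 values stood apart from the other 3 by more than Dixon's 95% limit, among 60 groups of values examined. Chance flags about 1 in 20 groups. *Pdgfrb* reached 3.38 FPKM in mouse 3 of the *Mboat7* ASKO group on HFD, against 0.403 to 0.495 FPKM in the others. *Cd34* was at 8.48 FPKM in control mouse 0 on HFD, against 15.8 to 17.0 FPKM. *Ly6a* was listed at 0 in mouse 0 of the *Mboat7* ASKO group on chow, against 16.8 to 17.7 FPKM, and reached 49.6 FPKM in mouse 2 of that genotype on HFD, against 14.3 to 19.7 FPKM. *Dcn* was at 214 FPKM in control mouse 3 on chow, against 99.1 to 118 FPKM.

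Among measures of whole libraries, control mouse 1 on chow had an FPKM sum of 772406, against 611890 to 636209, and its 10 highest genes held 42.0% of the sum, against 35.4% to 35.8%. In *Mboat7* ASKO mouse 3 on HFD the 10 highest genes held 54.2%, against 38.7% to 39.2%. Control mouse 0 on HFD had an estimated 424000 fragments, against 314000 to 330000. The same mouse had the highest *Sparc* (849 FPKM) and the lowest *Dcn* (59.6 FPKM), *Cd34* and *Pdgfra* (2.13 FPKM) of all 16.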

How the results depend on the processing

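The call for *Lum* was kept under every alternative run: over both genotypes the difference ran from 2.57 to 2.80 over 13 other settings and from 2.55 to 2.75 with 1 mouse left out. For *Sparc* it ran from 0.60 to 0.83 and from 0.58 to 0.73. The count of markers called for diet over both genotypes was 1 in place of 2 with the same FPKM sum (*Sparc* 0.60), without the intensity trend (0.67) and without the 2 mice with a dominant top 10, control mouse 1 and *Mboat7* ASKO mouse 3 on HFD (0.69, added after seeing the data). In control mice it was 2 in place of 1 with a filter of 5 FPKM (*Sparc* 0.84, adjusted p = 0.045 by limma). No count changed with 1 mouse left out.

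Signs turned only for differences that were not called. With a pseudocount of 0.1 these were *Pdgfrb* on HFD by genotype (0.078) and *Dpp4* by diet in *Mboat7* ASKO mice (0.084). The latter was also above 0 with the same FPKM sum (0.0067), that without the 10 highest genes (0.10), upper-quartile scaling (0.12) and without the 2 mice (0.067). *Pi16* turned by diet with upper-quartile scaling (0.0039) and array weights (0.082), and by genotype on HFD without the 2 mice (0.25). *Dcn* by diet in control mice was 0.045 with upper-quartile scaling. By genotype on chow *Lum* was 0.075 with array weights, and *Sparc* was -0.12 with either FPKM sum, -0.053 with upper-quartile scaling and -0.083 with quantile normalization. The *Sparc* interaction was 0.023 with the same FPKM sum. *Mboat7* on HFD was 0.042 with the same FPKM sum and 0.0067 with upper-quartile scaling.

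With 1 mouse left out, the genotype difference on HFD ran from -0.18 to 0.54 for *Pdgfra*, -0.49 to 0.078 for *Pdgfrb* and -0.39 to 0.28 for *Mboat7*. The diet difference ran from -0.45 to 0.33 for *Pi16*, from -0.65 to 0.29 for *Dpp4* in *Mboat7* ASKO mice and from -0.33 to 0.31 for *Dcn* in control mice. On chow the genotype difference ran from -0.23 to 0.13 for *Lum* and from -0.065 to 0.17 for *Sparc*.

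Scaling moved the median of all genes most for the interaction, from 0.038 in the main fit to 0.27 with the same FPKM sum. The share of higher genes among those called moved from 59.6% to 71.0% for diet over both genotypes with upper-quartile scaling, from 62.1% to 78.5% in *Mboat7* ASKO mice with the same setting, and from 62.1% to 49.6% in control mice with the same FPKM sum. Same-numbered mice are different animals, and their deviations from group means correlated between -0.19 and 0.15 in 24 pairs, 1 of them over 0.1. In 72 pairs of other numbers the correlation ran from -0.095 to 0.26, with 2 pairs over 0.1. Of the 16 mice, 8 correlated best with a mouse of their own number, although only 24 pairs shared a number and 72 did not. That is more than an even spread over the pairs would give, and what the numbers stand for is not stated. With the replicate number as a block the markers called were unchanged in number (2 for diet over both genotypes; *Sparc* adjusted p = 0.0349 by limma), and 926 in place of 990 genes were called. Depth limits *Pdgfrb*, *Ly6a*, *Pi16* and *Dpp4* most.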
